A study of Rattus norvegicus with 9 samples.

Results

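The 61 probes described here are oligonucleotides of the catalogue part of a rat Agilent expression array (probe names that begin with A_) that were well above background on every array and read at least 2-fold higher after cardiac arrest (CA) than in sham-operated rats within each of the 2 scan days. They are 61 of the 14258 catalogue probes well above background on all 9 arrays, or 0.428%, and 61 of all 40351 probes for sample RNA on the array, of which 30367 are catalogue and 9984 custom probes. A level here is log2 of the background-subtracted scanner signal minus the 75th percentile of the same array, so 0 is the brightness of that percentile. A difference of 1 between levels is a 2-fold difference in signal. A probe was kept where the mean of the CA arrays minus the mean of the sham arrays was 1 or more on the earlier day and again on the later day, and where the means of the days differed by less than 3. The probes were thus chosen by their CA and sham values on all 9 arrays, so the differences below describe the selection and support no further statement.

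The study asked how messenger and long noncoding RNA levels in the rat brain differ after resuscitation from CA. All rats were male Wistar rats, with no age given in the sources used here, and the tissue is labelled cerebral cortices. The 5 CA rats were anaesthetised with 30 mg/kg pentobarbital, ventricular fibrillation was set off with a 50 Hz, 6 V current through chest needles for 10 s, resuscitation by compressions and ventilation started 8 min later, and the rats were maintained to 2 h past the return of spontaneous circulation (ROSC). The 4 sham-operated rats were the blank control, and their anaesthesia and sampling time are not given separately. Cy3-labelled copies of 0.2 µg RNA from each rat went on 1 array each, numbered CA1 to CA5 and sham1 to sham4 after the replicate numbers.

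A 60-base expression probe reports the RNA that can pair with it, and many probes are placed near the 3′ end of a transcript. AATAAA is the usual signal for cutting and polyadenylating a messenger RNA, and ATTTA is the core of the AU-rich elements found in many short-lived messages of the early response to stress. Haemoglobin chains, the oxygen carriers of red blood cells, are encoded by the alpha-globin (Hba) and beta-globin (Hbb) gene clusters, and low globin expression has also been described in brain cells.

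The arrays stood apart by scan day before any grouping. CA3, CA4, CA5 and sham1 were scanned on the earlier day, and CA1, CA2, sham2, sham3 and sham4 on the later day. The later arrays lay on 1 slide, CA3, CA4 and sham1 on another, and CA5 on its own. Over the 28970 probes well above background on at least 4 arrays, levels of arrays of the same day correlated with Spearman rho of 0.841 to 0.984. Arrays of different days correlated with 0.601 to 0.720. Without CA3 the lowest rho within a day was 0.954. Of these probes, 1150 read at least 8-fold higher and 1574 at least 8-fold lower on the earlier day, so the days are kept apart throughout. One of these, A_64_P149562 (Pcp4, a neuronal calmodulin regulator, chosen after its values were seen), read 1.69 to 3.49 on the later arrays and -5.74 to -1.48 on the earlier arrays. It was well above background on only 6 of the 9 arrays. Pcp4 was not among the listed cell type markers, and the labelled tissue was not checked against marker genes. The array files pair no probe with a gene, and only the starts of transcripts were searched. The earlier arrays had 49.8% to 61.8% of all probes for sample RNA well above background against 70.3% to 73.5% on the later arrays. CA3 had the brightest negative controls, with a mean signal of 81.1 against 31.7 to 45.8 on the other arrays.

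The sequences below are those on which the account of the probes turns, as the array files print them, from 5′ to 3′. The first set holds 30-base stretches of the probes with the largest smaller within-day difference that carry a polyadenylation signal or an AU-rich core, in capitals, and 60 bases of the third probe in that order, in which nothing is marked.
A_64_P123603: gagcatgtgaatAATAAAagcctgtttatt
A_64_P020938: agtagttttttgttATTTATTTAttttaat
A_42_P682589: gaaggtgattgacagattctgATTTAtatt
A_64_P098255: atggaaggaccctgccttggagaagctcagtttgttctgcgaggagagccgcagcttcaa

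The second set holds the probes that were placed on globin genes, with the start codon in capitals. The first line is the whole probe and the second its last 30 bases.
A_64_P032502: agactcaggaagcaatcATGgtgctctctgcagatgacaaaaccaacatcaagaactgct
A_44_P306307: actcagaaacagacaccATGgtgcacctga
Bases 1 to 50 of A_44_P306307 were the first 50 bases of the RefSeq transcript start of Hbb on GRCr8, chr1:167663672-167663721, minus strand. A_64_P032502 shared bases 1 to 34 with Hba-a1 (chr10:15842531-15842564), bases 1 to 33 with Hba-a2 (chr10:15829090-15829122) and bases 1 to 30 with Hba-a3 (chr10:15816900-15816929), all on the minus strand. The end of the probe was not compared with these copies, so whether it tells them apart was not tested. The RefSeq table used covers 250 bases before and 50 bases after each gene's start. Both matches cover the end of the 5′ untranslated region and reach the start codon, and the other 59 probes matched no gene start and no microRNA hairpin over 20 bases.

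The third set is a pair of bright probes whose sequences align without a gap over 44 bases with 9 mismatches, 79.5% identity. Capitals mark the aligned bases that are the same in both. No gene is named for either.
A_64_P048927: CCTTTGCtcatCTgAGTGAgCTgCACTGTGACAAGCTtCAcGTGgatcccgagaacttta
A_64_P088393: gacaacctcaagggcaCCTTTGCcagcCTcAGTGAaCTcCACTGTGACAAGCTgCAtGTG
The fourth set is the other pair related in sequence, shown as the last 30 bases of each, which align over 58 bases in all with 2 mismatches. Capitals mark the bases that differ.
A_64_P076808: ctagaatatttcataaaaccagatAAacat
A_64_P155826: agaatatttcataaaaccagatTCacatta
Among the 61 probes no other pair aligned over 30 or more bases at 75% identity or more. Probes on separate parts of the same RNA would not align, so the number of different RNAs behind the 61 is not known.

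In base composition the 61 probes were like the catalogue probes they were drawn from. The median GC content was 45.0% in both sets, and ranged from 28.3% to 60% in the 61. A forward reading frame without a stop codon ran through 55 of the 61 probes (90.2%) and through 87.4% of the 14258. AATAAA on the probe's own strand was in 3 probes (4.92%, against 7.57%), and on either strand in 7 (11.5%, against 9.62%). ATTTA was in 4 on the probe strand (6.56%, against 5.22%) and in 6 on either strand (9.84%, against 10.9%). The motif TGACGTCA, the full cAMP response element, was in none of the 61 and in 0.084% of the 14258, on either strand. Each share is of 60-base probes, the motif searches overlap where letters are shared, and the shares are given as a description.

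On the earlier day the difference between CA and sham over the 61 probes had a median of 2.07 and ran from 1.01 to 6.37. On the later day the median was 1.38, with a range of 1.01 to 2.46. Over all 14258 catalogue probes the medians were -0.01 and 0.00. In 46 of the 61 the difference was larger on the earlier day and in 15 on the later day, whereas 49.1% of the 14258 had the larger difference on the earlier day. The earlier day has 1 sham array, so its differences have no spread on the sham side, and the later day has 2 CA and 3 sham arrays. As in any bulk tissue, more cells that hold an RNA and more of that RNA per cell cannot be told apart.

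The whole set was brightest on the CA arrays of the earlier day. The median level of the 61 probes was 1.86 on CA3, 1.47 on CA4 and 2.06 on CA5, against -0.55 on sham1. It was -0.13 on CA1 and 0.05 on CA2, against -1.14, -1.29 and -1.29 on sham2, sham3 and sham4. The median of the 14258 catalogue probes stayed between 0.11 and 0.45 on the same arrays. The sham array of the earlier day therefore lay above the later sham arrays and close below the later CA arrays in these medians, and 55 of the 61 probes read higher on the earlier day, against 63.1% of the catalogue probes.

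For 30 of the 61 probes all 5 CA arrays were above all 4 sham arrays, across both days, against 0.968% of the 14258 catalogue probes. Within both days the CA arrays stood above the sham arrays for 51 of them, against 4.15%. On the earlier day alone the groups did not overlap for 58 of the 61, against 23.2% of the 14258, and on the later day for 54, against 11.9%. Since the rule chose probes by these same differences, nothing is read from the gap between these shares. In 10 probes at least 1 CA array fell at or below a sham array of its own day.

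A_64_P123603, the probe with a polyadenylation signal close to its end, had the largest smaller difference of the set. It read 3.83, 3.43 and 4.20 on CA3, CA4 and CA5 against 0.71 on sham1. Its later-day levels were 3.03 and 3.74 on CA1 and CA2 against 1.43, 0.41 and 0.92 on sham2, sham3 and sham4. Every CA array lay above every sham array, and sham2 was the highest of the sham arrays. The CA minus sham difference was 3.11 on the earlier and 2.46 on the later scan day, with a residual SD (the spread of arrays around the mean of their group within their day) of 0.462. The 5 CA levels averaged 3.65 ± 0.440 (SD, n = 5) and the 4 sham levels 0.87 ± 0.429 (SD, n = 4).

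The array also holds a custom probe that aligns with A_64_P123603 over 51 bases with 4 mismatches, so both may pair with the same RNA or with close copies of it. That custom probe read 2.11, 1.60 and 2.62 on CA3, CA4 and CA5 against -0.59 on sham1. The later arrays gave 1.54 and 2.26 on CA1 and CA2 against 0.03, -0.59 and -0.36 on sham2, sham3 and sham4. The order of the groups was the same, and its differences of 2.70 and 2.21 were each below those of the catalogue probe.

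A_64_P020938 carries overlapping copies of the AU-rich core, ATTTATTTA, and had differences of almost the same size on both days. It read 2.86, 2.44 and 3.15 on CA3, CA4 and CA5 against 0.71 on sham1. For the later scan day the levels were 1.17 and 1.52 on CA1 and CA2 against -0.62, -0.94 and -0.79 on sham2, sham3 and sham4. The CA arrays lay above all sham arrays, and sham1 lay above the later sham arrays by more than 1. The CA minus sham difference was 2.11 on the earlier and 2.13 on the later scan day, with a residual SD of 0.272. A single exact run of 20 bases was shared with A_64_P118482, a probe outside the set, whose differences were -0.88 and 0.31.

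A_64_P098255 was open in all forward frames and was dim in the sham arrays of the later day. Its levels were 2.59, 1.93 and 3.18 on CA3, CA4 and CA5 against -0.73 on sham1. Its later levels were 0.13 and 0.62 on CA1 and CA2 against -1.04, -2.03 and -2.05 on sham2, sham3 and sham4. The groups did not overlap on either day or across days, though CA1 was within 1 of sham1. The differences were 3.30 on the earlier and 2.08 on the later scan day, with a residual SD of 0.559.

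A_42_P682589, with an AU-rich core near its end, had the largest earlier-day difference of the 61 probes in the values used here, and this rests on 1 sham array. It read 4.02, 3.44 and 4.38 on CA3, CA4 and CA5 against -2.42 on sham1. The later levels were 1.57 and 2.65 on CA1 and CA2 against 0.33, -0.14 and -0.03 on sham2, sham3 and sham4. The sham1 level lay far below the later sham arrays, which ranged from -0.14 to 0.33, whereas the CA arrays were above all of them. The differences were 6.37 on the earlier and 2.06 on the later scan day. The earlier-day difference was 4.77 with normexp background correction and 5.16 in the authors' deposited table, in which A_44_P284129 (9.11) and A_42_P762829 (5.48) had larger ones. The later-day value has 3 sham arrays behind it.

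A_44_P404064 completed the 5 probes with a difference of 2 or more on both days. It read 3.21, 2.18 and 3.61 on CA3, CA4 and CA5 against 0.26 on sham1, and 0.67 and 1.32 on CA1 and CA2 against -0.89, -0.90 and -1.29 on sham2, sham3 and sham4. All CA arrays were above all sham arrays, with CA1 the nearest to sham1. The differences were 2.74 on the earlier and 2.02 on the later scan day, with a residual SD of 0.53. Of the 14258 catalogue probes, 13 (0.0912%) reached 2 on both days without the limit on the day difference.

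A further 13 probes had a smaller difference between 1.5 and 2, and the next in order were A_44_P540517 and A_44_P536613. A_44_P540517 read 2.20, 1.99 and 2.56 on CA3, CA4 and CA5 against 0.25 on sham1, and 1.44 and 2.52 on CA1 and CA2 against -0.01, -0.26 and -0.20 on sham2, sham3 and sham4. Its day means differed by 1.05, all CA arrays were above all sham arrays, and CA2 was among the brightest. The differences were 2.00 on the earlier and 2.14 on the later scan day. A_44_P536613 read 1.28, 1.03 and 2.07 on CA3, CA4 and CA5 against -1.33 on sham1, and 0.19 and 0.36 on CA1 and CA2 against -1.46, -1.35 and -2.23 on sham2, sham3 and sham4. The groups did not overlap, and sham4 stood below the other sham arrays. The differences were 2.79 on the earlier and 1.95 on the later scan day.

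A_64_P162764 was bright on every array. It read 4.36, 4.09 and 5.13 on CA3, CA4 and CA5 against 1.84 on sham1, and 2.69 and 3.26 on CA1 and CA2 against 1.32, 0.81 and 1.14 on sham2, sham3 and sham4. All CA arrays exceeded all sham arrays, and the differences were 2.69 on the earlier and 1.88 on the later scan day. The probe is printed next with the 23 bases it shares with the probe A_64_P158939 in capitals. That probe did not meet the rule, and whether both pair with the same RNA was not tested.
A_64_P162764: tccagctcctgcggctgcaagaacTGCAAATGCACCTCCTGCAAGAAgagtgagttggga
A_64_P158939 read 4.47, 4.60 and 5.36 on CA3, CA4 and CA5 against 2.99 on sham1, and 3.70 and 3.99 on CA1 and CA2 against 3.46, 3.53 and 3.37 on sham2, sham3 and sham4. Its earlier-day difference was 1.82 and its later-day difference 0.39. The later sham arrays were thus close to the later CA arrays for A_64_P158939 and well below them for A_64_P162764.

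A_64_P129563 and A_44_P1048663 were dim probes of the first 12 in order. A_64_P129563 read 0.91, 0.61 and 1.06 on CA3, CA4 and CA5 against -0.78 on sham1, and -1.14 and -0.23 on CA1 and CA2 against -2.65, -2.68 and -2.87 on sham2, sham3 and sham4. CA1 lay below sham1, so the groups overlapped across days but not within either day, and the differences were 1.64 on the earlier and 2.05 on the later scan day. A_44_P1048663 read 0.33, 0.30 and 1.22 on CA3, CA4 and CA5 against -2.14 on sham1, and -1.59 and -1.40 on CA1 and CA2 against -3.04, -3.16 and -3.19 on sham2, sham3 and sham4. All CA arrays were above all sham arrays, and the differences were 2.76 on the earlier and 1.63 on the later scan day. On both probes sham1 was the highest sham array by a wide gap.

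The probes placed on globin genes shared a pattern in which CA1 was far above CA2. A_44_P306307, the Hbb probe, read 2.96, 2.66 and 2.06 on CA3, CA4 and CA5 against 0.11 on sham1. Its later-day levels were 1.97 and -0.37 on CA1 and CA2 against -0.88, -0.74 and -0.76 on sham2, sham3 and sham4. CA2 lay between the later sham arrays and sham1, and CA1 was far above both. The differences were 2.45 on the earlier and 1.60 on the later scan day, with a residual SD of 0.795. The later-day difference was 0.43 without CA1 and 2.76 without CA2.

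The Hba probe A_64_P032502 read 5.70, 5.26 and 4.69 on CA3, CA4 and CA5 against 2.60 on sham1. The later arrays gave 4.32 and 1.91 on CA1 and CA2 against 1.23, 1.38 and 1.66 on sham2, sham3 and sham4. CA1 was 2.42 above CA2 here and 2.34 above it for Hbb, the largest such gaps among the 61 probes. The differences were 2.61 on the earlier and 1.69 on the later scan day. Without CA1 the later-day difference of A_64_P032502 was 0.48, and without CA2 it was 2.90. Of the 3 listed red cell markers (Hbb, Hba1 and Alas2), Hbb and the alpha-globin genes had a probe placed here. None was placed on Alas2, but only the starts of transcripts were searched, so a probe elsewhere on Alas2 would be missed. The part of blood in the tissue in these values was not tested.

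Another 4 probes, bright on every array, likewise had CA1 far above CA2, and they are named here after their values were seen. Only transcript starts were searched for them, so whether they also report globin RNA was not tested. A_64_P048927 read 5.18, 4.86 and 4.47 on CA3, CA4 and CA5 against 2.13 on sham1, and 4.68 and 2.54 on CA1 and CA2 against 1.98, 1.92 and 2.24 on sham2, sham3 and sham4. A_64_P088393, which aligns with it, read 7.28, 7.03 and 6.65 on CA3, CA4 and CA5 against 4.32 on sham1, and 6.23 and 4.30 on CA1 and CA2 against 3.72, 3.76 and 4.02 on sham2, sham3 and sham4. On both probes CA1 was nearer to the earlier CA arrays and CA2 nearer to the sham arrays. A_64_P088393 had unscaled signals of 27376 on CA1, 6619 on CA2 and 4004 to 5525 on the later sham arrays.

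A_64_P088392 read 6.86, 6.62 and 6.37 on CA3, CA4 and CA5 against 3.89 on sham1, and 6.01 and 4.03 on CA1 and CA2 against 3.50, 3.48 and 3.81 on sham2, sham3 and sham4. A_64_P028036, which holds AATAAA within its last bases, read 5.75, 5.51 and 5.18 on CA3, CA4 and CA5 against 2.74 on sham1, and 4.94 and 2.74 on CA1 and CA2 against 2.23, 2.18 and 2.42 on sham2, sham3 and sham4. The CA1 level exceeded that of CA2 by 1.98 for A_64_P088392 and by 2.20 for A_64_P028036. Without CA1 the later-day differences of these 4 probes were 0.46 (A_64_P028036), 0.49 (A_64_P048927), 0.46 (A_64_P088393) and 0.43 (A_64_P088392), and without CA2 they were 2.66, 2.63, 2.40 and 2.41. The last 30 bases of A_64_P028036 are printed with the signal in capitals. It is one of the 3 probes of the set with this signal on its own strand, with A_64_P123603 and A_64_P156319.
A_64_P028036: tttgaaaatctgtcctactAATAAAaggca

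In all, CA1 was at least 1 above CA2 for 16 of the 61 probes, and the medians of these 16 were 1.81 on CA1, -0.24 on CA2 and -0.82 to -0.73 on the later sham arrays. A_44_P541461, one of the first 12 in order, belonged to them. It read 2.30, 1.53 and 1.31 on CA3, CA4 and CA5 against -0.18 on sham1, and 1.98 and -0.33 on CA1 and CA2 against -1.05, -0.88 and -0.89 on sham2, sham3 and sham4. Its CA2 level lay between sham1 and the later sham arrays, and its differences were 1.90 on the earlier and 1.77 on the later scan day. Without CA1 its later-day difference was 0.61 and without CA2 2.93. For these 16 the later-day difference reflects 1 of the 2 CA rats more than the other. Without CA1 the rule found 59 probes, and 40 of the 61 were among them.

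The opposite order was seen for 12 probes, in which CA2 was at least 1 above CA1. Their medians were -0.57 on CA1 and 1.06 on CA2, against -1.32 to -1.20 on the later sham arrays. A_64_P036676 had the largest such gap (named after its values were seen). It read 1.92, 1.93 and 2.27 on CA3, CA4 and CA5 against 0.70 on sham1, and -1.17 and 1.09 on CA1 and CA2 against -1.40, -1.04 and -0.89 on sham2, sham3 and sham4. CA1 lay between the later sham arrays and CA2 far above them. Its later-day difference of 1.07 was -0.0606 without CA2 and 2.21 without CA1. Over all 61 probes CA1 was the higher of the later CA arrays in 26 and CA2 in 35. The gap between CA1 and CA2 had a median of -0.04 over the 14258 catalogue probes.

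Among the earlier CA arrays, CA5 was the brightest for 34 probes, CA3 for 20 and CA4 for 7. Without CA3 the earlier-day difference was still 1 or more for 55 of the 61. The 6 that fell below 1 were dim, with levels from -2.61 to -1.13 over the 9 arrays. They were A_42_P580844 (0.97 without CA3), A_64_P144711 (0.92), A_64_P155826 (0.999), A_44_P359113 (0.23), A_64_P132014 (0.14) and A_44_P356738 (0.16).

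A_64_P132014 shows this most plainly. It read 0.37, -2.80 and -2.85 on CA3, CA4 and CA5 against -2.96 on sham1, and -2.02 and -2.78 on CA1 and CA2 against -3.64, -3.18 and -3.43 on sham2, sham3 and sham4. CA3 alone stood high on the earlier day, and CA4 and CA5 were close to sham1. CA3 is the array with the brightest negative controls (81.1), and the part of that background in these 6 values was not tested.

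The sham array of the earlier day was above every later sham array for 43 probes and below all of them for 11. For 8 probes it was lower by 0.5 or more, and their earlier-day differences had a median of 3.65 against a later-day median of 1.18. A_43_P12023 and A_64_P154952 followed A_42_P682589 in the size of the earlier-day difference (both named after their values were seen). A_43_P12023 read 2.76, 1.73 and 3.45 on CA3, CA4 and CA5 against -2.65 on sham1, and -0.48 and 1.73 on CA1 and CA2 against -0.47, -0.98 and 0.05 on sham2, sham3 and sham4. A_64_P154952 read 2.40, 1.60 and 3.63 on CA3, CA4 and CA5 against -2.36 on sham1, and -0.56 and 1.55 on CA1 and CA2 against -0.74, -1.29 and -0.15 on sham2, sham3 and sham4. On the later day CA1 fell among the sham arrays for both, and CA2 was above them. The earlier-day differences were 5.29 and 4.91, and the later-day differences 1.09 and 1.22. Without CA2 the later-day differences were -0.0095 and 0.17, and without CA1 they were 2.20 and 2.28.

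For 7 probes the day means differed by less than 0.5. The day means hold unequal numbers of CA and sham arrays, and within each group all 7 read lower on the earlier day, by 0.04 to 0.81 for CA and by 0.20 to 1.04 for sham. The related pair A_64_P076808 and A_64_P155826 was among them. A_64_P076808 read -0.72, -1.35 and -0.82 on CA3, CA4 and CA5 against -2.18 on sham1, and -0.64 and -0.14 on CA1 and CA2 against -1.87, -1.67 and -1.64 on sham2, sham3 and sham4. A_64_P155826 read -0.88, -1.39 and -0.89 on CA3, CA4 and CA5 against -2.14 on sham1, and -0.46 and -0.11 on CA1 and CA2 against -1.59, -1.44 and -1.29 on sham2, sham3 and sham4. The array profiles of the pair ran closely together, and 56 of the 58 aligned bases are the same. The differences were 1.21 on the earlier and 1.34 on the later scan day for the first and 1.08 on the earlier and 1.15 on the later scan day for the second. Because they share most of their sequence they are not independent of each other.

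A_44_P356738 lay closest to the fold limit and overlaps 4 probes outside the set by 36 to 56 bases with at most 3 mismatches. It read -0.05, -2.26 and -2.92 on CA3, CA4 and CA5 against -2.75 on sham1, and -0.36 and -1.49 on CA1 and CA2 against -2.07, -2.11 and -1.74 on sham2, sham3 and sham4. CA3 was high and CA5 lay below sham1, and on the later day CA1 was higher than CA2. The differences were 1.01 on the earlier and 1.05 on the later scan day. The overlapping probes had earlier-day differences of 0.88 (A_64_P001096), 0.02 (A_64_P002479), 0.94 (A_64_P043421) and 0.33 (A_64_P049153), all below 1. Their later-day differences were 1.08, 1.18, 1.45 and 1.24 in the same order, all above 1.

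The probes with the least scatter within days were A_44_P337300, A_44_P998015 and A_44_P201028, with residual SDs of 0.137, 0.148 and 0.204 (the last 2 of them named after their values were seen). A_44_P337300 read 1.86, 1.85 and 1.99 on CA3, CA4 and CA5 against 0.25 on sham1, and -0.53 and -0.80 on CA1 and CA2 against -1.71, -1.83 and -2.01 on sham2, sham3 and sham4. The earlier CA arrays lay close together, as did the later sham arrays, while sham1 was above both later CA arrays. A_44_P998015 read 0.61, 0.50 and 0.79 on CA3, CA4 and CA5 against -0.43 on sham1, and -0.81 and -1.16 on CA1 and CA2 against -2.46, -2.40 and -2.36 on sham2, sham3 and sham4. A_44_P201028 read 0.93, 1.00 and 1.46 on CA3, CA4 and CA5 against -0.93 on sham1, and -1.06 and -0.82 on CA1 and CA2 against -2.43, -2.62 and -2.52 on sham2, sham3 and sham4. In all of them the groups were apart within each day and overlapped across days, since sham1 lay above 1 or both of the later CA arrays. The differences were 1.65 on the earlier and 1.18 on the later scan day for A_44_P337300, 1.06 on the earlier and 1.42 on the later scan day for A_44_P998015 and 2.06 on the earlier and 1.59 on the later scan day for A_44_P201028.

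Of the 12 probes brighter than the 75th percentile on every array, 4 more had CA4 or CA5 as their brightest array and large day differences, and all but A_42_P762829 are named after their values were seen. A_42_P762829 read 4.50, 5.21 and 5.35 on CA3, CA4 and CA5 against 1.91 on sham1, and 2.23 and 2.15 on CA1 and CA2 against 1.20, 0.48 and 0.35 on sham2, sham3 and sham4. Its day means differed by 2.96, the most of the 61, and its differences were 3.11 on the earlier and 1.52 on the later scan day. A_64_P065063 read 4.37, 4.87 and 4.85 on CA3, CA4 and CA5 against 1.81 on sham1, and 1.94 and 2.18 on CA1 and CA2 against 1.35, 0.38 and 0.70 on sham2, sham3 and sham4. A_64_P050851 read 4.12, 4.55 and 4.27 on CA3, CA4 and CA5 against 1.44 on sham1, and 1.93 and 2.28 on CA1 and CA2 against 1.35, 0.29 and 0.55 on sham2, sham3 and sham4. These 3 probes had all CA arrays above all sham arrays, with CA1 and CA2 not far above sham1. A_44_P914438 read 3.98, 4.71 and 4.22 on CA3, CA4 and CA5 against 1.77 on sham1, and 2.30 and 1.12 on CA1 and CA2 against 0.51, 0.34 and 0.69 on sham2, sham3 and sham4. Its CA2 level was below sham1, and its differences were 2.54 on the earlier and 1.20 on the later scan day.

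A_64_P042278 and A_64_P042283 (named after their values were seen) had near-equal differences. Their sequences did not align over 30 or more bases, and whether they report the same RNA was not tested. The first read 2.05, 2.50 and 2.29 on CA3, CA4 and CA5 against -0.55 on sham1, and -0.17 and 0.05 on CA1 and CA2 against -0.98, -1.96 and -1.37 on sham2, sham3 and sham4. The second read 2.30, 2.76 and 2.65 on CA3, CA4 and CA5 against -0.25 on sham1, and 0.33 and 0.54 on CA1 and CA2 against -0.45, -0.99 and -0.69 on sham2, sham3 and sham4. The CA arrays stood above all sham arrays for both, and CA4 was the brightest array. The differences were 2.83 on the earlier and 1.38 on the later scan day for A_64_P042278 and 2.82 on the earlier and 1.14 on the later scan day for A_64_P042283.

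A larger difference on the later day was clearest for A_64_P029805 and A_64_P101792 (named after their values were seen). A_64_P029805 read 1.01, 1.65 and 2.19 on CA3, CA4 and CA5 against 0.51 on sham1, and -0.02 and 1.03 on CA1 and CA2 against -1.44, -1.77 and -1.87 on sham2, sham3 and sham4. Its sham1 level was far above the later sham arrays and above CA1, and the differences were 1.11 on the earlier and 2.20 on the later scan day. A_64_P101792 read 0.12, 0.27 and 0.48 on CA3, CA4 and CA5 against -0.73 on sham1, and 0.35 and 1.72 on CA1 and CA2 against 0.87, -0.78 and -1.69 on sham2, sham3 and sham4. The later sham arrays of this probe were widely spread, with sham2 above CA1, and the differences were 1.02 on the earlier and 1.57 on the later scan day. The SD of the later sham levels was 1.30 for A_64_P101792 (n = 3) and 0.227 for A_64_P029805 (n = 3).

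On the earlier day a CA array fell at or below sham1 for 3 probes, A_43_P15253, A_44_P359113 and A_44_P356738. A_43_P15253 read 3.07, 0.29 and 3.66 on CA3, CA4 and CA5 against 0.86 on sham1, and 1.24 and 0.89 on CA1 and CA2 against -0.41, -0.67 and -0.65 on sham2, sham3 and sham4. CA4 lay below sham1 while CA3 and CA5 were well above it. A_44_P359113 read 0.33, -2.77 and -2.26 on CA3, CA4 and CA5 against -2.74 on sham1, and -3.20 and -1.95 on CA1 and CA2 against -3.89, -3.54 and -3.48 on sham2, sham3 and sham4. CA3 was again the only earlier array far from the others. On the later day a CA array fell at or below a sham array for 7 probes, and these were A_44_P147156, A_64_P154952, A_64_P156319, A_64_P095877, A_43_P12023, A_64_P036676 and A_64_P101792.

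A_43_P11965 was dim and even, and A_43_P14882 combined a low sham1 with a moderate later difference (both named after their values were seen). A_43_P11965 read -0.60, -0.59 and -0.49 on CA3, CA4 and CA5 against -2.97 on sham1, and -1.59 and -1.01 on CA1 and CA2 against -2.45, -2.67 and -2.80 on sham2, sham3 and sham4. The 3 earlier CA arrays had an SD of 0.0601, all CA arrays were above all sham arrays, and the differences were 2.42 on the earlier and 1.34 on the later scan day. A_43_P14882 read 3.40, 2.70 and 4.42 on CA3, CA4 and CA5 against -0.53 on sham1, and 1.82 and 1.41 on CA1 and CA2 against 0.86, -0.03 and -0.01 on sham2, sham3 and sham4. CA2 was the CA array nearest to a sham array, sham2, and the differences were 4.04 on the earlier and 1.34 on the later scan day. The probes not named here one by one had differences within the ranges given for the set.

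Of the 61 probes, 43 had a smaller difference under 1.5. Across the set the level over all arrays ran from -2.70 to 5.26 with a median of 0.07, near the median of 0.22 of the catalogue probes. There were 12 probes above the 75th percentile on every array and 11 below it on every array. The residual SD had a median of 0.507, against 0.273 for the catalogue probes, and was over 1 for 4 of the 61, among them A_64_P132014. The unscaled signals ran from 15.4 to 33730.

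Just inside the fold limit were A_44_P356738 (1.01 on the earlier and 1.05 on the later day), A_64_P118753 (2.05 and 1.01) and A_64_P132014 (1.201 and 1.02). Just outside were A_64_P010887 (3.52 and 0.99), A_44_P117148 (0.99 and 1.00) and A_64_P002156 (2.53 and 0.98). The limit on the day difference removed 28 of the 89 probes (0.624% of the 14258) at 1 or more on both days, all of them brighter on the earlier day. Just inside it were A_42_P762829 (2.96 between the days), A_44_P337300 (2.86) and A_44_P284129 (2.86). Just outside it were A_42_P806899 (3.05), A_43_P12927 (3.08) and A_44_P171321 (3.09). In the opposite direction, 6 catalogue probes were at -1 or less on both days within the day limit.

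The fit of limma with scan day as a block called 3 of the 28970 tested probes higher after CA at a Benjamini-Hochberg adjusted p under 0.05 (0.0104%), and 1 of them was among the 61. That probe was A_64_P020938, with a fitted CA minus sham difference of 2.12 (SE 0.205) and an adjusted p of 0.0401 from limma. Adjusted p-values of the other 60 probes ran upward from 0.0565 in the same limma fit. At an unadjusted p under 0.05, limma called 58 of the 61, against 2.74% of the tested probes. Without the day block limma called 0 of the 61 and 0 of the 28970 probes (0%), and the lowest adjusted p of the 61 was 0.290. These p-values use the contrast that chose the probes and describe how the differences compare with the spread between arrays. The labels name separate rats, and the p-values measure the spread between those rats and their arrays together. Among the other fits, limma called 21 of the 61 with normexp background correction (0.159% of all tested probes) and 22 with array weights (0.252%). It called 28 of the 61 when only probes above background on all arrays were tested (0.384%). The call was lost, with 0 of the 61 called, under quantile normalization (0.00345% of all tested probes), median scaling (0.0345%), the 75th percentile over probes above background on all arrays (0.00345%), slide as block (0.00345%), the deposited table (0%) and the fit of all sample probes (0%). It was also lost without CA5 (0.00345%) and, each at 0%, without CA1, CA2 or any 1 of the sham arrays.

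In the other processings of the same arrays all 61 probes stayed above 0 on both days, but many fell below the limit of 1. With normexp background correction the median differences were 1.48 and 0.99, and 28 of the 61 were still at 1 or more on both days. In the authors' deposited table, whose values are on a log2 scale, the medians were 2.08 and 1.31 and 37 of the 61 stayed at 1 or more. In both of these sets 23 of the 61 reached the limit. The deposited table gave A_44_P284129 an earlier-day difference of 9.11, against 3.08 in the values used here and 2.55 with normexp. For the dim probe A_64_P074998 (unscaled signals of 18.3 to 96.8) the normexp differences were 0.48 and 0.51, against 1.24 and 1.25.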

How the data were processed

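RNA from 9 rat cortices was hybridised to 1-colour Agilent arrays, 1 per rat. Spot intensity is the deposited processed signal, background-subtracted by Agilent Feature Extraction 10.7.1.1 per the submitters' processing notes, and the marks for well above background and outlying spots are those of the same deposited scanner files. The authors' deposited table holds log2 values with a median of 5.87 over all its rows and arrays together. The steps behind these values are not given in the sources used here. Spots marked as outliers were left out and log2 intensity minus the array's 75th percentile was used (R 4.3.3). The limma 3.58.1 fit covered probes well above background on at least 4 arrays, with scan day as a block. Scan day is read from the file headers.

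The members and lists were chosen with earlier results of these data known. Probes named are the 12 with the largest smaller within-day difference and the 3 on each side of each limit. Also named are probes that share 20 or more bases with each other or a custom probe, those placed on a RefSeq gene start and those limma called. All others were chosen after their values were seen, and not every one of them is marked so. The array files pair no probe with a gene, and only transcript starts and microRNA hairpins were searched, not the rest of transcripts or proteins. The gene lists for stress responses and cell types were therefore not used, apart from Hbb. Of 117 listed genes with a RefSeq start, 2 (Hbb and Ptgs2) had a probe over 20 or more of its bases. Alternatives were normexp (offset 50), other scalings, the deposited table, other limits, blocks and probe filters, array weights, and each array left out.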

Additional observations from a re-analysis of the deposited data

Results flagged for a closer look

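For 122 sets of values (the CA arrays and the sham arrays of each of the 61 probes) the highest or lowest array was compared with the rest by Dixon's ratio at the 95% level, and 18 stood apart. The level of 95% stands for about 1 in 20 among values drawn alike. These sets pool both scan days, their probes were chosen by the rule, and probes of the same arrays are not independent. The 18 can therefore not be compared with that rate.

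In 10 of the 18 the array that stood apart was sham1, which alone represents the sham group on the earlier day. For A_42_P682589 sham1 was at -2.42, below the -0.14 to 0.33 of the other sham arrays. In the other 9 it was the highest. It was at -0.78 for A_64_P129563 (others -2.87 to -2.65), at -2.14 for A_44_P1048663 (others -3.19 to -3.04) and at 0.11 for the Hbb probe A_44_P306307 (others -0.88 to -0.74). It was at -0.93 for A_44_P201028 (others -2.62 to -2.43), at -0.12 for A_44_P283812 (others -2.67 to -2.27) and at 0.86 for A_43_P15253 (others -0.67 to -0.41). It was at 0.0386 for A_44_P284129 (others -1.14 to -0.95), at 0.25 for A_44_P337300 (others -2.01 to -1.71) and at -0.43 for A_44_P998015 (others -2.46 to -2.36). The sham1 array and its scan day cannot be told apart in these values.

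For A_44_P536613 sham4 was at -2.23, below the -1.46 to -1.33 of the others, and for A_64_P095877 sham2 was at 0.0018, above the -1.11 to -0.94 of the others. Among the CA arrays, CA2 was at 2.74 for A_64_P028036 (others 4.94 to 5.75) and at 2.54 for A_64_P048927 (others 4.47 to 5.18), the lowest of the group in both. For A_64_P101792 CA2 was at 1.72, above the others at 0.12 to 0.48. CA5 was at 1.15 for A_64_P159543 (others -0.61 to -0.15) and CA3 at 0.37 for A_64_P132014 (others -2.85 to -2.02), the highest in both. CA1 was at -0.58 for A_44_P523372, below the 0.51 to 0.78 of the others.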

How the results depend on the processing

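The rule found 61 probes. It found 36 with normexp (28 shared with the 61, which is 45.9% of the 61 and 77.8% of the 36), 158 with probes well above background on at least 4 arrays, 173 with a fold limit of 0.58, 5 with a limit of 2, and 34 with a day difference under 2. With an array left out in turn it found 59 to 79, and without CA1 only 40 of the 61 were among them. Of the 61, 28 stayed at 1 or more on both days with normexp, 37 in the deposited table and 42 to 61 with an array left out. Without sham1 the earlier day has no sham array and the rule gives no value. Of the 122 within-day differences of the 61 probes, none changed sign under another background correction, scaling or source of values. Leaving out an array turned 2 of them: without CA2 the later-day difference was -0.0095 for A_43_P12023 and -0.0606 for A_64_P036676, and with an array left out in turn it reached 2.20 and 2.21.

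limma called 1 of the 61. It called 21 with normexp, 22 with array weights and 28 when only probes above background on all arrays were tested, out of 46, 73 and 65 called in all. It called 0 with quantile normalization, median scaling, the 75th percentile over probes above background on all arrays, the deposited table, no day block, slide as block, or all sample probes tested, where it called 1, 10, 1, 0, 0, 1 and 0 probes in all. With an array left out it called 0 to 2: 0 without CA1, CA2, CA5 or any sham array, and 2 without CA3. In all it called 6 probes without CA3, 3 without CA4, 1 without CA5 and 0 without each of the other arrays. Correlations of the deviations of same-numbered arrays were -0.85, 0.82, -0.29 and -0.73 for numbers 1 to 4. Only CA2 and sham2 shared a scan day, so these values cannot show whether replicate numbers pair the rats. With a replicate block, with or without scan day, limma called 0.

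Median scaling put the median of the 14258 catalogue probes at -0.32 on the earlier day, and all 61 stayed above 0 there. Differences on the earlier day rest on 1 sham array, the number of arrays limits the precision, and dim probes are near the negative controls.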
